A study of Mus musculus with 12 samples.

Results

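The genes described here are the IL-1 ligands, their natural antagonist and their receptors, namely Il1a, Il1b, Il1rn, Il1r1, Il1rap and Il1r2. They were chosen by gene symbol and not by a cut on their values, though with earlier results of these data known. They are 6 of the 18505 genes in the table of expression values from mouse skin. The study asked how Banzhilian formula (BZLF), an externally applied herbal preparation, affects psoriasis-like skin lesions. The 12 skin samples were collected on day 10 and fall into 3 groups of 4: control, IMQ + NS and IMQ + BZLF. All were wild type (WT) BALB/c mice, male and 5 to 6 weeks old at purchase according to the methods. Control skin was shaved and coated with petroleum jelly, and the label calls its treatment white space handling. Imiquimod (IMQ), an agonist of Toll-like receptor 7, was applied as a cream to the other groups, and was followed by normal saline (NS) in one and by BZLF in the other. The methods describe a dressing of gauze and polyurethane film over both IMQ groups and mention none for control skin. Imiquimod and the dressing therefore cannot be told apart in the comparisons with control skin. The dose of BZLF behind the sequenced samples is not given in the sources used here. Imiquimod skin is an acute model of psoriasis, and each sample is a mixture of all cells of the skin, so fewer cells of a type and less RNA per cell cannot be told apart. Nothing in the labels states whether the 4 samples of a group are separate animals, and p-values measure the spread between these samples.

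IL-1 alpha (Il1a) and IL-1 beta (Il1b) are inflammatory cytokines that bind the same receptor, Il1r1. Binding recruits the accessory protein Il1rap, and the complex signals through Myd88, the IRAK kinases and NF-kappa B. IL-1 alpha is stored in keratinocytes and is active as a precursor, whereas IL-1 beta is made mainly by myeloid cells on stimulation and has to be cleaved, classically by caspase-1 in an inflammasome. Signalling is restrained by the receptor antagonist Il1rn, which occupies Il1r1 without recruiting Il1rap, and by Il1r2, a decoy receptor that binds the ligands but lacks the signalling domain. In the skin IL-1 signals to keratinocytes, fibroblasts and immune cells, and induces chemokines that attract neutrophils.

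Expression was given in FPKM, the fragments counted on a transcript divided by its length and by the size of the library, a level per length that allows different genes to be set side by side. Groups were compared by limma on log2(FPKM + 0.1) over 15288 genes, those whose FPKM averaged at least 0.1, with Benjamini-Hochberg adjustment over all of them. A gene was called, or is said to have risen or fallen, where its adjusted p was below 0.05 and its log2 fold change exceeded 1 in either direction. The smallest p that the two-sided exact permutation test can reach with 4 samples in each group is 0.0286. All 6 genes passed the filter on low values. The 3 comparisons share samples in pairs, so their results are not independent of one another.

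The 3 ligand genes lie on chromosome 2 in GRCm38 (mm10, GENCODE M21). Il1a (chr2:129299610-129309972, minus strand) and Il1b (chr2:129364570-129371139, minus strand) are neighbours separated by 54597 bp, and Il1rn (chr2:24336853-24351494, plus strand) is distant from both. The receptor genes Il1r2 (chr1:40074079-40125231) and Il1r1 (chr1:40225080-40317257) lie in the same orientation on chromosome 1 with 99848 bp between them, and Il1rap is at chr16:26581704-26730117, also on the plus strand. These are the positions of whole protein-coding genes, exons and introns included. Antisense genes in the annotation overlap Il1a, Il1b, Il1r2 and Il1rap on the other strand. None of these is listed in the table, and whether the counting used strand is unclear, so a share of antisense reads in these values cannot be told apart. On the same strand, Gm38070 overlaps Il1r1 and Gm37347 overlaps Il1r2, and strand would not separate their reads.

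The promoters of the ligands are shown because these 3 genes were the members that rose in the lesions. Each sequence runs 5′ to 3′ on the gene's strand from 250 bases before to 50 bases after the start (RefSeq, GRCm38.p6), and for Il1rn the first of 3 windows is shown. The windows are chr2:129309923-129310222 for Il1a, chr2:129371090-129371389 for Il1b and chr2:24336610-24336909 for Il1rn. Capitals mark matches to the TATA box TATAAA, searched on the gene's strand, and to the AP-1 motif TGANTCA, searched on both strands.
Il1a: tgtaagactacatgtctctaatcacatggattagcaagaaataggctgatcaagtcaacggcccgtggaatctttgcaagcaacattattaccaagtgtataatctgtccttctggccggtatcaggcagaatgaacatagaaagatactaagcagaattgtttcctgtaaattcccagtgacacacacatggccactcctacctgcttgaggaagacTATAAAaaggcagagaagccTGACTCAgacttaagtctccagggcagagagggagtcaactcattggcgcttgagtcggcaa
Il1b: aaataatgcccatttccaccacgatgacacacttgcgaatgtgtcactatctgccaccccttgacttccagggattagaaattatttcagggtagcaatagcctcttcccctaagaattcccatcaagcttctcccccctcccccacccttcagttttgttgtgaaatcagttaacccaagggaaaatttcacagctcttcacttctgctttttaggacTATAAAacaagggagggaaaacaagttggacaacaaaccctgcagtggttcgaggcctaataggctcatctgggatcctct
Il1rn: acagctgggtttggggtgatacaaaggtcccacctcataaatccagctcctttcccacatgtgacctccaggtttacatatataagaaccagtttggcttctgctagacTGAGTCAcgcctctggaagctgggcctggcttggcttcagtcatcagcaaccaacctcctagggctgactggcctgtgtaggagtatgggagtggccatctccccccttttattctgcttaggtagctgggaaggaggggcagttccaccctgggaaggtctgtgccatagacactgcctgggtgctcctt
A TATA box began 32 bases before the start of Il1a and 31 bases before that of Il1b. An AP-1 motif began 12 bases before the start in Il1a and 141 bases before it in Il1rn. The NF-kappa B consensus of 10 letters, searched on both strands, had no match in these 3 windows, and among all windows of the 6 genes it matched once, 232 bases before the second start of Il1r1. Of 32851 windows of this length in the genome, 8.32% held the TATA box, 7.81% the AP-1 motif and 8.46% the NF-kappa B consensus. The matches are letters only and do not show that a factor binds.

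In normal skin the decoy receptor was the most abundant of the 6 transcripts and Il1a the least. Il1r2 averaged 33.9 FPKM ± 9.06 (SD, n = 4), above 88.9% of all 18505 genes in the table, those under the filter included. Its lowest control sample exceeded every control value of the other 5 genes. Il1r1 (8.94 FPKM ± 2.13, SD, n = 4), Il1rn (7.23 ± 1.85) and Il1b (5.67 ± 0.569) followed, and neighbours in this order overlapped between samples. Il1rap averaged 3.29 FPKM ± 0.482 (SD, n = 4) and Il1a 1.18 FPKM ± 0.331, each below all control values of the gene before it. The order changed in the lesions: in IMQ + NS skin the highest levels were those of Il1b and Il1rn, which overlapped, and Il1r2 lay below Il1r1 without overlap. In IMQ + BZLF skin Il1rn was highest, and Il1b was at the low end together with Il1rap, with which it overlapped.

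**Figure D1:**
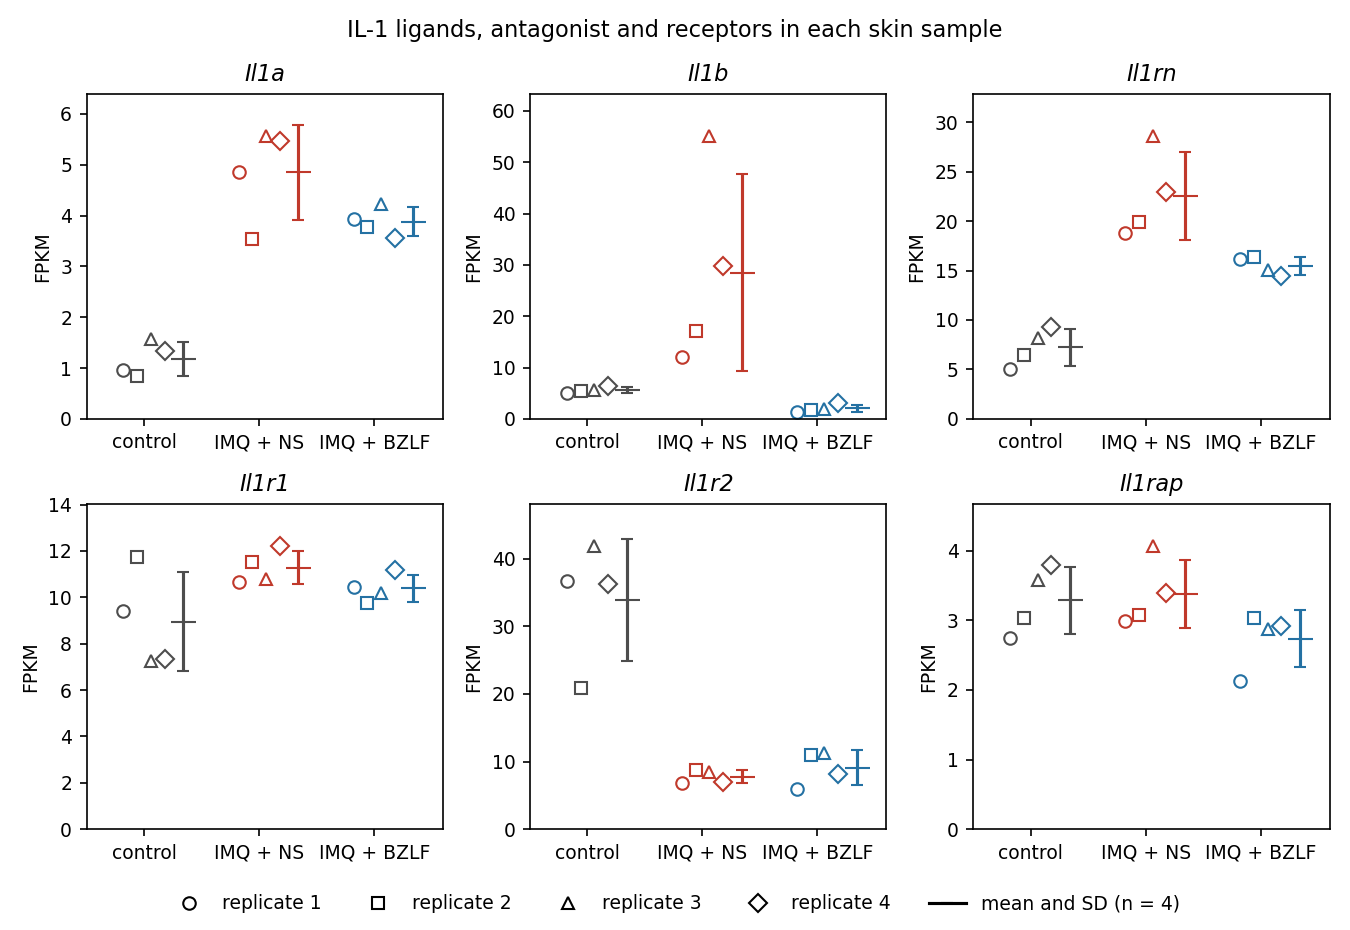
FPKM of the 6 IL-1 genes (y axes from 0, 1 panel per gene) in control, IMQ + NS and IMQ + BZLF skin. Symbols are single samples by replicate number, and bars are the mean and SD (n = 4). The 4 IMQ + BZLF samples of Il1b (1.44 to 3.01 FPKM) sit below the 4 control samples (5.08 to 6.44), whereas those of Il1a and Il1rn stay above the controls.

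Il1b, the secreted myeloid ligand, showed the widest range of the 6 genes and was the only 1 of them called in all 3 comparisons. Its FPKM in the 4 control samples was 5.08, 5.51, 5.66 and 6.44. In the IMQ + NS samples it was 12, 17.2, 55.1 and 29.7. In the IMQ + BZLF samples it was 1.44, 1.82, 2.02 and 3.01. No sample of any group overlapped with those of another, and the groups were ordered IMQ + NS, control, IMQ + BZLF. Il1b rose in IMQ + NS against control skin, with means of 28.5 ± 19.2 (SD, n = 4) and 5.67 FPKM and a log2 fold change of 2.07 (SE 0.41, limma adjusted p = 0.00267). It fell in IMQ + BZLF against IMQ + NS skin, where the mean of 2.07 FPKM ± 0.666 (SD, n = 4) was 13.7-fold lower and the log2 fold change was -3.53 (SE 0.43, 95% interval -4.49 to -2.56, limma adjusted p = 0.00348). By size this was number 36 among all genes tested. Il1b also fell below normal skin: IMQ + BZLF samples were 2.74-fold lower than controls, a log2 fold change of -1.45 (SE 0.20, limma adjusted p = 6.23e-04). Each of these differences had an exact permutation p of 0.0286, the smallest possible.

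The lesional samples were uneven for Il1b. The coefficient of variation was 67.5% in IMQ + NS and 32.1% in IMQ + BZLF skin, and IMQ + NS replicate 3 alone accounted for the highest value. Without it the log2 fold change of Il1b was 1.68 against control (limma adjusted p = 0.00222) and -3.13 for IMQ + BZLF against IMQ + NS (limma adjusted p = 0.0026).

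Il1a, the keratinocyte ligand, rose in the lesions and, unlike Il1b, stayed high under BZLF. Its FPKM was 0.964, 0.849, 1.57 and 1.33 in control samples. It was 4.85, 3.54, 5.57 and 5.47 in IMQ + NS samples, and 3.94, 3.78, 4.24 and 3.56 in IMQ + BZLF samples. Both lesional groups lay above all controls and overlapped with each other. Against control skin the log2 fold change was 1.97 in the IMQ + NS group (SE 0.22, limma adjusted p = 1.37e-04) and 1.67 in the IMQ + BZLF group (SE 0.19, limma adjusted p = 2.4e-04). Between the lesional groups the difference was -0.30 (SE 0.14, limma adjusted p = 0.248), and its 95% interval of -0.62 to 0.021 excludes a fall of the size seen for Il1b.

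Il1rn, which encodes the antagonist, also rose in the lesions and remained above normal skin under BZLF. Control samples had 5.06, 6.45, 8.17 and 9.25 FPKM. IMQ + NS samples had 18.8, 19.9, 28.6 and 22.9 FPKM, and IMQ + BZLF samples 16.2, 16.3, 15.1 and 14.4 FPKM. The 3 groups did not overlap, in the order IMQ + NS, IMQ + BZLF, control. Il1rn rose in IMQ + NS against control skin by a log2 fold change of 1.64 (SE 0.20, limma adjusted p = 2.42e-04), and in IMQ + BZLF against control skin it was higher by 1.12 (SE 0.17, limma adjusted p = 0.00101). The latter is close to the fold limit, and without control replicate 1 it was 0.97, under the limit. In IMQ + BZLF against IMQ + NS skin the log2 fold change was -0.52 (SE 0.12, adjusted p = 0.0397 by limma), which is smaller than the fold limit. Its p passed the threshold only in part of the settings: in 12 of 19 others the adjusted p was above it, among them 6 of the 8 fits without 1 replicate (limma adjusted p = 0.0262 to 0.145 over the 19).

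Il1r1 and Il1rap, the 2 chains of the signalling receptor, were called in none of the 3 comparisons. Il1r1 had 9.43, 11.8, 7.23 and 7.36 FPKM in control, 10.6, 11.5, 10.8 and 12.2 in IMQ + NS, and 10.4, 9.76, 10.2 and 11.2 in IMQ + BZLF samples. Il1rap had 2.74, 3.03, 3.58 and 3.79 FPKM in control, 2.99, 3.08, 4.06 and 3.40 in IMQ + NS, and 2.13, 3.03, 2.88 and 2.91 in IMQ + BZLF samples. For both genes every group overlapped with every other. In IMQ + NS against control skin the log2 fold change was 0.36 for Il1r1 (95% interval 0.0031 to 0.71, limma adjusted p = 0.0791) and 0.041 for Il1rap (95% interval -0.29 to 0.37, limma adjusted p = 0.824). Between BZLF and saline the log2 fold change was -0.12 for Il1r1 (95% interval -0.27 to 0.034, limma adjusted p = 0.339) and -0.30 for Il1rap (95% interval -0.61 to 0.014, limma adjusted p = 0.239). Against control skin the IMQ + BZLF samples differed by 0.24 for Il1r1 (95% interval -0.11 to 0.60, limma adjusted p = 0.221) and by -0.26 for Il1rap (95% interval -0.61 to 0.096, limma adjusted p = 0.190). All of these intervals lie inside the fold limit in both directions. Control replicate 2, a library that stands apart, held the highest Il1r1 value of its group, and without it Il1r1 differed by 0.50 in IMQ + NS against control skin (limma adjusted p = 0.00345) and by 0.38 in IMQ + BZLF against control skin (limma adjusted p = 0.0133), both under the fold limit.

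Il1r2, the decoy receptor, fell in both lesional groups to about the same level. Its FPKM was 36.7, 20.9, 41.9 and 36.2 in control samples. It was 6.82, 8.79, 8.42 and 7.03 in IMQ + NS samples and 5.97, 11, 11.3 and 8.22 in IMQ + BZLF samples. Both lesional groups lay below all controls, and they overlapped with each other. The mean was 4.37-fold lower in IMQ + NS than in control skin (log2 fold change -2.08, SE 0.21, limma adjusted p = 8.13e-05) and 3.72-fold lower in IMQ + BZLF than in control skin (-1.88, SE 0.26, limma adjusted p = 6.11e-04). Between the lesional groups the log2 fold change was 0.19 (SE 0.19, 95% interval -0.24 to 0.63, limma adjusted p = 0.602). The low control value is again that of replicate 2: without it the control mean was 38.3 FPKM ± 3.12 (SD, n = 3) and the log2 fold changes were -2.29 and -2.10.

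In all, 3 members rose and 1 fell in IMQ + NS against control skin, where 22.4% of all genes tested were called in either direction, 11.4% higher and 11.0% lower. In IMQ + BZLF against IMQ + NS skin 1 member fell and none rose, against 2.52% of all genes called, 0.321% higher and 2.20% lower. In IMQ + BZLF against control skin 2 members rose and 2 fell, against 19.7% of all genes called, 9.65% higher and 10.1% lower. Groups did not overlap for 4, 2 and 4 of the 6 members in these comparisons, and for 49.4%, 15.2% and 47.5% of all genes tested. On p alone, without the fold limit, the same 4 members passed in each comparison with control skin, where 56.1% and 53.0% of all genes did (in IMQ + BZLF skin 23.8% higher and 29.2% lower), and Il1rn joined Il1b between the lesional groups, with the p that depends on the setting, where 1.28% of all genes were higher, 5.17% lower and 6.45% either. The median log2 fold change of the members was 1.0, -0.30 and -0.0087, beside 0.053, -0.023 and -0.018 over all genes. With 6 genes these counts are descriptions of the members and say nothing of a group effect.

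**Figure D2:**
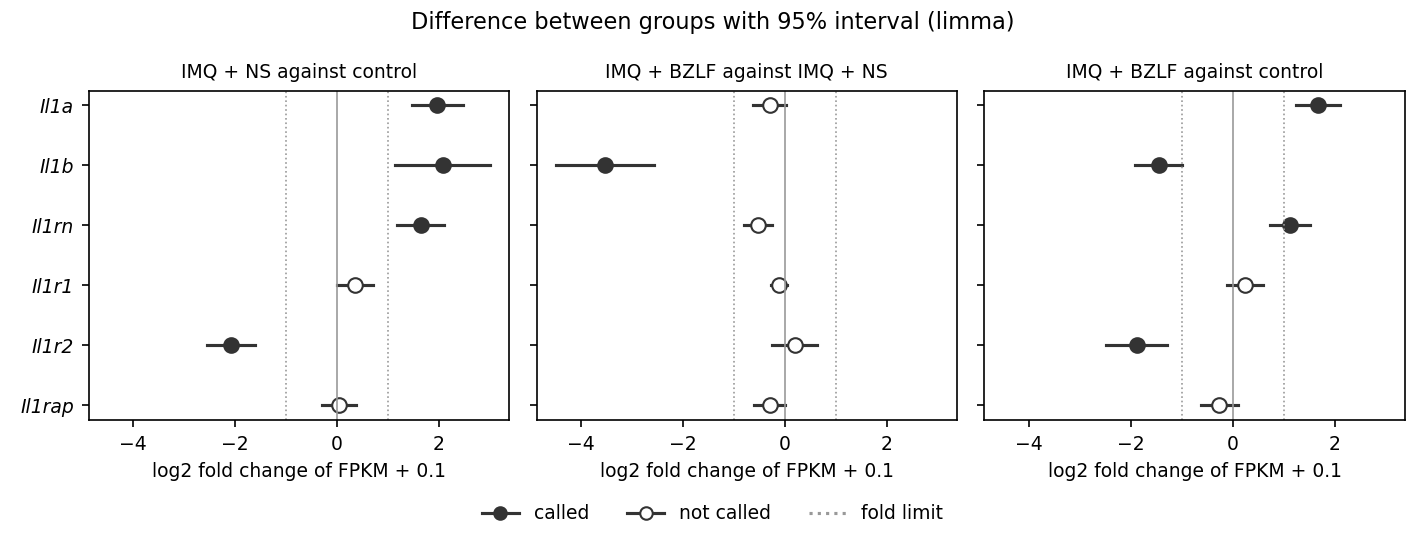
Log2 fold change of FPKM + 0.1 (x axis) for the 6 IL-1 genes (rows) in each comparison, 1 panel per comparison. Points are limma estimates, lines their 95% intervals, filled points called genes and dotted lines the fold limit. Il1b lies at 2.07, -3.53 and -1.45 in the 3 comparisons, and Il1r1 and Il1rap lie inside the limit in each of them.

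Because FPKM is a level per length, the balance between agonist and antagonist transcripts could be described within each sample. The ratio of Il1b to Il1rn was 0.693 to 1.0 in control, 0.637 to 1.93 in IMQ + NS and 0.0892 to 0.208 in IMQ + BZLF samples. Its geometric mean was 0.802, 1.08 and 0.129, so that the first 2 groups overlapped and the IMQ + BZLF samples lay below both. For Il1a to Il1rn the ratio was 0.132 to 0.192 in control, 0.178 to 0.258 in IMQ + NS and 0.232 to 0.281 in IMQ + BZLF samples, and each group overlapped with the next. The antagonist transcript thus made up 45.6% to 54.3% of the FPKM of the 3 ligands in control, 32.0% to 52.8% in IMQ + NS and 68.7% to 75.0% in IMQ + BZLF samples.

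The leading agonist transcript also differed between groups. Il1a was 0.154 to 0.277 times Il1b in control and 0.101 to 0.405 times in IMQ + NS samples, but 1.18 to 2.73 times in IMQ + BZLF samples, where it exceeded Il1b in 4 of 4. For the receptors, the ratio of Il1r2 to Il1r1 was 1.78 to 5.79 in control, 0.576 to 0.782 in IMQ + NS and 0.572 to 1.13 in IMQ + BZLF samples. The decoy transcript thus exceeded Il1r1 in every control sample and lay below it in every IMQ + NS sample. These ratios restate the levels above and were not tested.

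**Figure D3:**
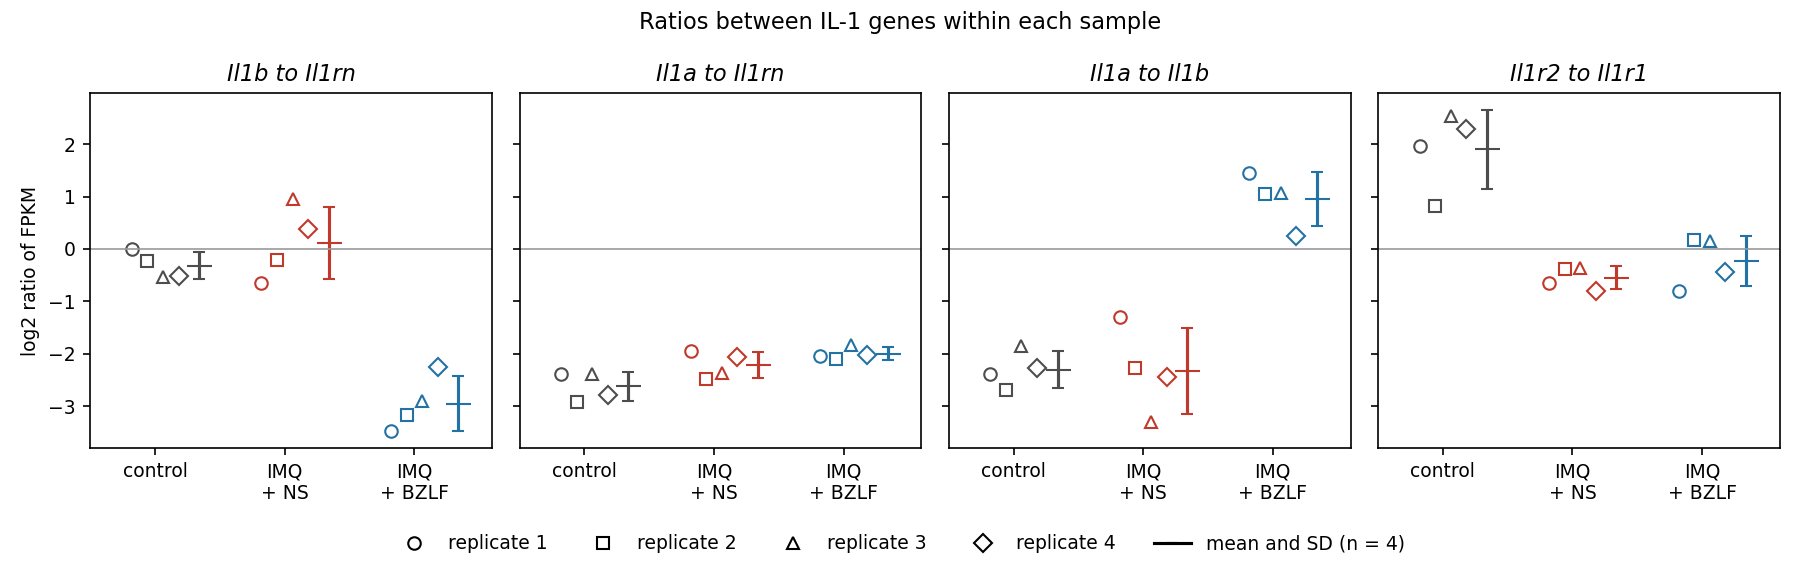
Log2 ratio of FPKM between 2 IL-1 genes within each sample (y axis), 1 panel per ratio, for control, IMQ + NS and IMQ + BZLF skin. Symbols are single samples by replicate number, bars are the mean and SD (n = 4), and 0 means equal levels. The IMQ + BZLF samples have Il1b to Il1rn ratios of 0.0892 to 0.208 and Il1a to Il1b ratios of 1.18 to 2.73, apart from both other groups.

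Markers of several cell types moved with these genes. All 15 neutrophil markers fell in IMQ + BZLF against IMQ + NS skin, where 2.20% of all genes fell. In IMQ + NS against control skin, where 11.4% of all genes rose, 14 of the 15 markers did, Mmp9 being the exception. Their summed FPKM was 49.2 to 75.8 in control, 3169 to 9974 in IMQ + NS and 72.4 to 99.5 in IMQ + BZLF samples, and in IMQ + NS skin came mostly from S100a8 and S100a9, which keratinocytes also make. Without this pair the sum of the other 13 was 22.0 to 34.1 in control, 63.7 to 143 in IMQ + NS and 12.6 to 22.0 in IMQ + BZLF samples. As for Il1b, IMQ + NS replicate 3 was highest and replicate 1 lowest in this sum, and the IMQ + BZLF samples lay at or below the controls. Ly6g, which defines mouse neutrophils, was at 0 or at most 0.0273 FPKM in control, at 0.426 to 1.41 in IMQ + NS and at 0 to 0.443 in IMQ + BZLF samples. It rose in IMQ + NS against control skin by a log2 fold change of 2.94 (limma adjusted p = 2.35e-04) and fell by 2.25 with BZLF (limma adjusted p = 0.0465). Against control skin 1 neutrophil marker was higher under BZLF (S100a8) and 2 were lower (Mmp9 and Retnlg), beside 9.65% and 10.1% of all genes. The part of neutrophils in the Il1b values was not tested.

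Of 12 macrophage and monocyte markers, 0 rose and 1 fell in IMQ + NS against control skin (Cd163). Of all genes, 11.4% rose and 11.0% fell there. On p alone, 1 marker was higher and 8 were lower, beside 29.0% and 27.1% of all genes. In IMQ + BZLF against IMQ + NS skin 0 rose and 1 fell, beside 0.321% and 2.20% of all genes. The marker that fell there was Adgre1, encoding the macrophage antigen F4/80. It averaged 28.6, 46.0 and 18.1 FPKM in control, saline and BZLF skin, with a log2 fold change of -1.36 between the lesional groups (limma adjusted p = 0.00157). In IMQ + BZLF against control skin, the comparison in which Il1b lay below normal skin, 5 of the 12 fell (C1qa, C1qc, Cd14, Cd163 and Lyz2) and 0 rose. Of all genes, 10.1% fell and 9.65% rose there. The list median was -0.92, beside -0.018 for all genes. On p alone 11 of the 12 were lower, beside 29.2% of all genes. The summed FPKM of this list was 1864 to 2668 in control, 1183 to 1798 in IMQ + NS and 785 to 1235 in IMQ + BZLF samples. Lyz2 weighed most in it, with means of 1091, 668 and 514 FPKM in these groups, so the sum need not show the course of lower markers such as Adgre1. The part of macrophages was likewise not tested.

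**Figure D4:**
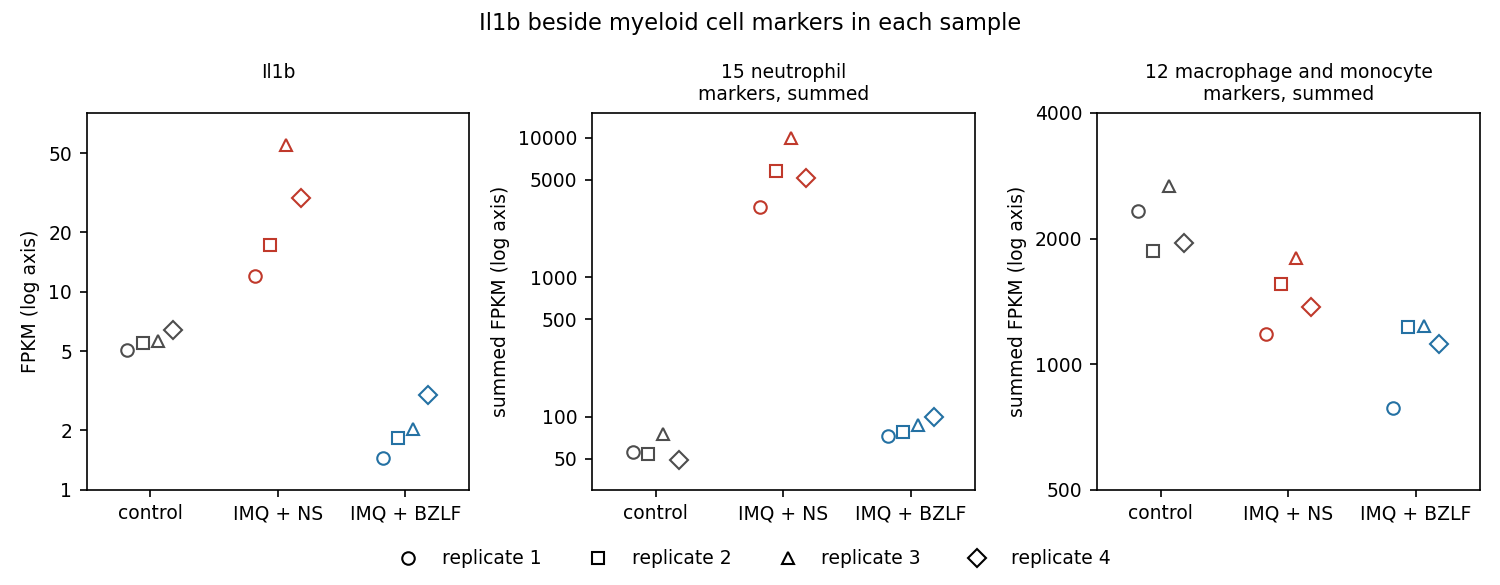
FPKM of Il1b, summed FPKM of 15 neutrophil markers and summed FPKM of 12 macrophage and monocyte markers (log axes) in each skin sample, by group. Il1b and the neutrophil sum are highest in the 4 IMQ + NS samples (12 to 55.1 and 3169 to 9974), whereas the macrophage sum is highest in control samples (1864 to 2668). Lyz2 weighs most in the macrophage sum, which need not show the course of lower markers such as Adgre1.

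Keratinocyte markers rose with Il1a and Il1rn in the lesions, but some of them fell under BZLF while neither of these genes was called. Of 10 such markers, 9 rose in IMQ + NS against control skin, 4 fell in IMQ + BZLF against IMQ + NS skin (Krt14, Krt16, Krt6a and Krt6b, list median -0.99) and 6 rose in IMQ + BZLF against control skin. Of all genes, 11.4% rose, 2.20% fell and 9.65% rose in these comparisons. Krt5 and Krt14, the keratins of basal cells, averaged 657 and 486 FPKM in the control group, 1652 and 2100 FPKM with saline, and 955 and 714 FPKM with BZLF. Beside the lower Il1r2, 7 of 8 fibroblast markers and 6 of 6 skeletal muscle markers fell in IMQ + NS and in IMQ + BZLF against control skin, and none of either list was called between the lesional groups. Of all genes, 11.0% and 10.1% fell in the comparisons with control skin, and 2.52% were called between the lesional groups. Col1a1, encoding a chain of type I collagen, averaged 4548, 1056 and 1886 FPKM in the same order of groups. Of 9 T cell markers, 7 were in the table and 6 were tested. In IMQ + NS against control skin 1 rose (Icos), and the same gene fell with BZLF, beside 11.4% and 2.20% of all genes. Under BZLF 2 of the 6 fell against control skin (Cd3e and Cd3g), beside 10.1% of all genes. Cd3e averaged 2.44, 1.47 and 0.967 FPKM in the 3 groups. The part of these cell types in the levels of Il1a, Il1rn and Il1r2 was not tested. Replicate 2 of the control group stood apart on the first principal component (-63.2, against -116 to -122 for the other controls), had the lowest skeletal muscle sum, and shared with IMQ + BZLF replicate 2 a seminal vesicle signal of 39.6 and 38.9 FPKM that was at most 0.0441 elsewhere. With both of these libraries left out, an alternative chosen after seeing the data, the same 4 members were called in IMQ + BZLF against control skin.

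For each member the genes with the most similar pattern were ranked by the root mean square difference between centred log2 values over the 12 samples, among the 12656 genes that averaged at least 1 FPKM. Closest to Il1b were Retnlg (difference 0.430), a granulocyte gene of the resistin family that is also on the neutrophil list, Mcemp1 (0.526), a membrane protein of myeloid and mast cells, and Ccl3 (0.557), a chemokine. These differences are large beside those of other members, and Il1b itself had an SD of 1.54 over the samples. Retnlg averaged 3.75, 13.2 and 1.27 FPKM in control, IMQ + NS and IMQ + BZLF skin and, like Il1b, fell below the control level. Closest to Il1r2 were Cd74 (0.159), the invariant chain of MHC class II, Ly6c1 (0.170) and H2-Aa (0.172), an MHC class II chain. Cd74 averaged 1146, 286 and 346 FPKM in the 3 groups and H2-Aa 445, 119 and 146 FPKM. Il1a was nearest to Zswim4 (0.196), Gba2 (0.198) and Pak6 (0.201), and Il1rn to Ceacam19 (0.163), the sulfotransferase gene Sult2b1 (0.172) and Gsto1 (0.176). Il1r1 was nearest to Mcmbp (0.0506), Uba2 (0.0572) and Scaf8 (0.0633), and Il1rap to Lrp1 (0.102), Cltb (0.124) and Diaph2 (0.126), and both members varied little over the samples (SD 0.230 and 0.225).

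Of 14 genes that process and release IL-1, 3 rose and 1 fell in IMQ + NS against control skin, where 11.4% and 11.0% of all genes did, and the median log2 fold change was 0.33 beside 0.053 for all genes. Gsdma, which encodes a pore-forming gasdermin of the epidermis, rose from 12.8 to 80.4 FPKM (log2 fold change 2.71, SE 0.22, limma adjusted p = 2.7e-05) and averaged 83.6 FPKM under BZLF. Pycard, the inflammasome adaptor, rose from 15.7 to 34.3 FPKM (1.12, SE 0.11, limma adjusted p = 7.3e-05). Nlrp3, an inflammasome sensor, was the third to rise, at low levels of 0.170 and 0.835 FPKM. Prtn3, a granule protease able to cleave IL-1 beta, fell from 13.4 to 4.93 FPKM (-1.41, SE 0.24, limma adjusted p = 0.00116). Casp1, which encodes the converting enzyme itself, averaged 21.8, 19.6 and 18.1 FPKM in control, IMQ + NS and IMQ + BZLF skin and was not called in any comparison. Under BZLF 2 of the 14 fell against IMQ + NS skin, where 2.20% of all genes fell, with a median of -0.37 beside -0.023 for all genes: Nlrp3, to 0.0957 FPKM, and the neutrophil elastase gene Elane, from 0.701 to 0.194 FPKM. Both lie near the filter on low values, and with a constant of 1 in the logarithm neither was called. Of 8 fits that left out a replicate, 7 called only 1 gene of this list, the exception being the fit without IMQ + NS replicate 2. Casp1, Nlrp3 and Elane are named here after their values were seen.

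None of the 17 genes of receptor signal transduction, from Myd88 to NF-kappa B subunits, was called in any comparison. Of all genes, 22.4%, 2.52% and 19.7% were called in IMQ + NS against control, IMQ + BZLF against IMQ + NS and IMQ + BZLF against control skin. At the share of 2.52%, a count of 0 among 17 genes tells little in the second comparison. The median log2 fold change of the list was 0.14, -0.12 and -0.096 in the same order, beside 0.053, -0.023 and -0.018 for all genes. With no limit on the fold change, 7 were higher and 1 lower in the first comparison, beside 29.0% and 27.1% of all genes. In the second 4 were lower, beside 5.17% of all genes. In the third 4 were higher and 3 lower, beside 23.8% and 29.2% of all genes.

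Known IL-1 and NF-kappa B target genes included several that rose in lesions and fell with BZLF. Of 14 tested, 7 rose and 1 fell in IMQ + NS against control skin, where 11.4% and 11.0% of all genes did (median 1.10, beside 0.053 for all genes). With BZLF 9 fell and 0 rose against IMQ + NS skin, where 2.20% and 0.321% of all genes did (median -1.79, beside -0.023). Saa3, an acute phase protein, rose from 4.65 to 584 FPKM (log2 fold change 6.89, SE 0.50, limma adjusted p = 1.6e-05). The neutrophil chemokine Cxcl5 rose from 0.0538 to 3.95 FPKM (4.41, SE 0.59, limma adjusted p = 3.62e-04), and Mmp3, a matrix metalloproteinase, fell from 145 to 50.9 FPKM (-1.50, SE 0.29, limma adjusted p = 0.00254). Under BZLF the largest falls were those of Cxcl2, another neutrophil chemokine, from 9.43 to 0.0115 FPKM with 2 samples listed at 0 (-5.82, SE 0.63, limma adjusted p = 0.00177), and of Cxcl5 to 0.0533 FPKM (-4.37, SE 0.55, limma adjusted p = 0.00387). Against control skin 1 of the 14 was higher in IMQ + BZLF samples (Saa3) and 3 were lower (Cxcl1, Cxcl2 and Mmp3). Of all genes, 9.65% were higher and 10.1% lower there. The list median was -0.42, beside -0.018 for all genes. Cxcl1 and Cxcl2 were low under BZLF, at 0.421 and 0.0115 FPKM. Several genes of this list are also expressed by neutrophils. Of the neutrophil markers 14 of 15 rose in IMQ + NS against control skin and 15 fell with BZLF. Of the keratinocyte markers 9 of 10 rose and 4 fell in these comparisons. The part of either cell type in the levels of the target genes was not tested.

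Among the other IL-1 superfamily genes, those of the 3 IL-36 ligands rose in lesions and fell with BZLF. The table lists the IL-36 genes under older symbols, Il1f6 for Il36a, Il1f8 for Il36b, Il1f9 for Il36g and Il1f5 for Il36rn. Of 12 genes, 6 rose and 0 fell in IMQ + NS against control skin, beside 11.4% and 11.0% of all genes (median 0.94, beside 0.053), and the 6 include all of these 4. The epithelial ligand Il1f6 rose from 0.614 to 50.4 FPKM (log2 fold change 6.28, SE 0.43, limma adjusted p = 1.1e-05), where its mean exceeded that of Il1b although their samples overlapped, and Il1f8 rose from 3.34 to 29.7 FPKM (3.19, SE 0.37, limma adjusted p = 1.67e-04). Under BZLF, 6 genes fell against IMQ + NS skin and 0 rose, beside 2.20% and 0.321% of all genes (median -0.80, beside -0.023). Il1f6 fell to 5.36 FPKM (-3.49, SE 0.55, limma adjusted p = 0.00904) and Il1f9 fell from 32.3 to 6.78 FPKM (-2.31, SE 0.35, limma adjusted p = 0.00761). Unlike Il1b, Il1f6 remained above control skin under BZLF, as did Il1f8 and Il1f10, while the alarmin Il33 and the receptor chain Il18r1 were below it. The count of falls rests in part on IMQ + BZLF replicate 2, without which it was 3.

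**Figure D5:**
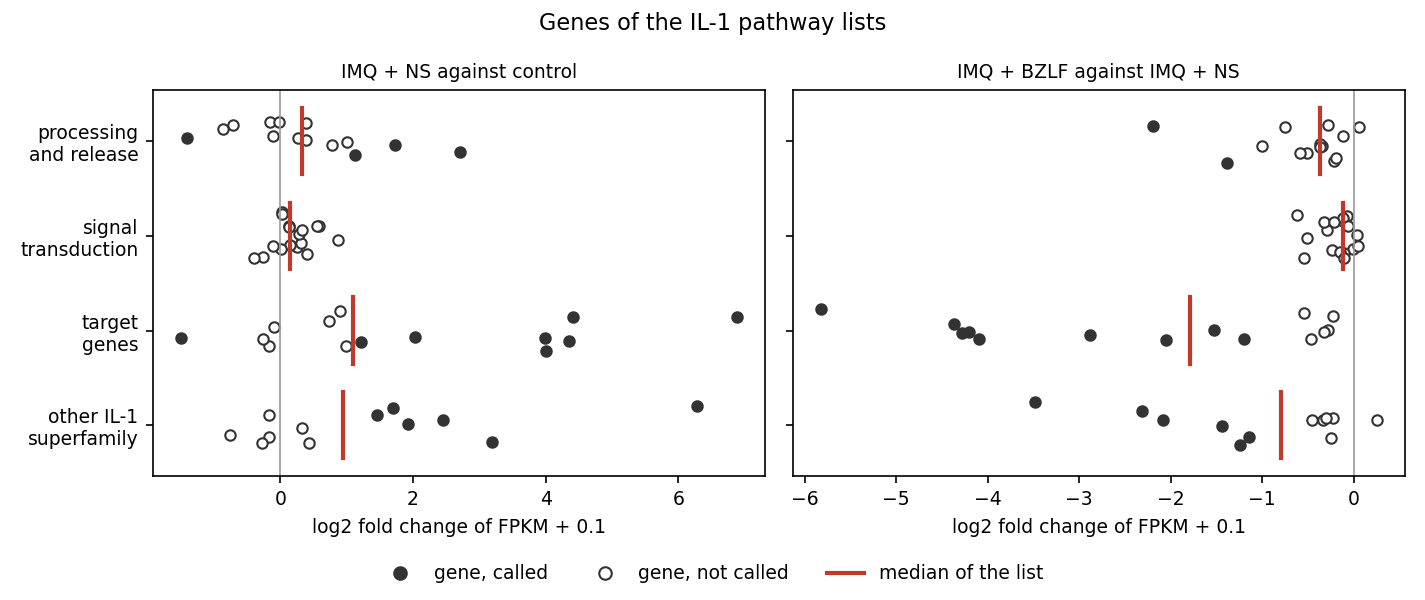
Log2 fold change of FPKM + 0.1 (x axis) of each tested gene in 4 lists (processing and release, signal transduction, target genes, other IL-1 superfamily), in IMQ + NS against control and in IMQ + BZLF against IMQ + NS skin. Filled points are called genes, open points genes not called, and red bars list medians. The target genes have medians of 1.10 and -1.79, and no gene of signal transduction is called in either panel. Of all genes tested, 22.4% and 2.52% were called in these comparisons.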

How the data were processed

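The deposited table holds 1 FPKM value per gene and sample for 12 skin samples, 4 per group, as made by the authors and neither log-transformed nor pooled. The methods describe Bowtie2 alignment to transcripts, eXpress for FPKM and a stranded ribosome-depleted library, whereas the submitters' notes name fastp, HISAT2, HTSeq, R 3.2.0 and mm10 and the labels another kit. Which of these made the table is not given in the sources used here. Estimated FPKM can shift between overlapping transcripts. The paper reports the range of sequence data per sample, but the reads behind each value are unknown without counts. The FPKM of a sample added up to 444660 to 506622. Of 18505 symbols, 18369 matched RefSeq. Of 131 genes on the lists 129 were in the table, 4 of them under an older symbol. No 2 samples were identical, and all 12 columns were mapped by their titles.

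Each pair of groups was tested with limma 3.58.1 (R 4.3.3) on log2(FPKM + 0.1), with a variance trend, two-sided, in genes averaging at least 0.1 FPKM, with Benjamini-Hochberg adjustment. The constant understates the fold change of low genes. Single members were also compared by exact permutation over 70 assignments. The method was tested on simulated data. Python 3.11.15, pandas 2.3.3 and matplotlib 3.10.9 were used for annotation and figures.

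The members, lists and tests were chosen with earlier results of these data known. Named were the members, the 2 largest called rises and falls of each pathway list among genes averaging at least 1 FPKM, 1 or 2 defining markers per cell type and the 3 genes most like each member, and exceptions are marked. Replicate numbers were not treated as pairing samples. Alternatives were other constants, filters, scalings, variance models, the replicate number as a block, no fold limit, and leaving out each replicate.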

Additional observations from a re-analysis of the deposited data

Results flagged for a closer look

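The 63 groups of 4 samples examined covered the members, the ratios between them and the sums of the pathway and marker lists. Of these groups, 5 had a highest or lowest sample set apart from the other 3 by more than Dixon's limit. Chance alone flags about 1 in 20 groups. Il1rap in IMQ + BZLF skin was the only member concerned: replicate 1 had 2.13 FPKM, and the gap to the next sample made up 0.835 of the group's range. Among the marker lists, control replicate 2 had the highest or lowest sum of its group for T cells (12.1 FPKM), skeletal muscle (3346 FPKM) and seminal vesicle (39.6 FPKM), and IMQ + BZLF replicate 2 the highest for seminal vesicle (38.9 FPKM).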

How the results depend on the processing

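Of 348 values of members under another setting, 343 kept their direction and stayed called or not called. The exceptions were Il1rn in IMQ + BZLF against control skin, with 0.97 to 1.25 when 1 replicate was left out and the lowest without control replicate 1, and Il1rap in IMQ + NS against control skin, which was not called and changed sign with samples rescaled to equal sums (-0.089), with quantile normalization (-0.084) and with 1 replicate left out (-0.048 to 0.11). These scalings moved the median of all genes in that comparison by -0.126 and -0.124. The replicate numbers were not treated as pairing the samples: correlations of same-numbered deviations ran from -0.152 to 0.26 and were not above 0.1 in every pair, although the same number was the best match in 7 of 12 such matches, numbers 3 and 4 in all 3 comparisons, a hint from the data and not the design. With a replicate block, 4, 1 and 4 members were called as before, Il1b in IMQ + BZLF against IMQ + NS skin kept -3.53 (limma adjusted p = 0.00155) and Il1rn there had a limma adjusted p of 0.0637, one of 12 in 19 settings that were above the threshold. Of 305 list counts, 280 stayed within 1.5 times. With no fold limit the count was 7 for processing and 8 for signalling genes in IMQ + NS against control skin, where 56.1% of all genes passed. In IMQ + BZLF against IMQ + NS skin it was 4 for signalling genes and 2 for members, beside 6.45% of all genes. In IMQ + BZLF against control skin it was 7 each for processing, signalling and target genes, beside 53.0% of all genes. The count of 2 processing genes in IMQ + BZLF against IMQ + NS skin was 0 with a constant of 1 or a mean FPKM of at least 1, was 1 with no filter, median ratio scaling, all 12 samples in one fit, no trend or the replicate block, and was 1 to 2 with 1 replicate left out, being 1 in 7 of 8 such fits. The count of 6 superfamily genes there was 3 to 6 with 1 replicate left out, lowest without IMQ + BZLF replicate 2. In IMQ + BZLF against control skin, the count of 4 target genes was 2 with a constant of 1, and that of 0 signalling genes was 0 to 1 with 1 replicate left out, being 1 without control replicate 2, and 1 without both libraries with seminal vesicle signal, an alternative chosen after seeing the data. The causes were not tested. Depth limits the low genes, Nlrp3, Elane, Ly6g and Cxcl5 among them, whose reads cannot be counted from FPKM.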
